A study of Mus musculus with 12 samples.

Results

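Small nucleolar RNAs (snoRNAs) and small Cajal body RNAs were described in HT22, a mouse cell line that was immortalized from hippocampal neurons, with and without loss of Ncoa4 and of iron. The members were all gene entries named Snord, Snora or Scarna with a number and with an FPKM (fragments scaled to transcript length and library size) of at least 0.5 in at least 3 of the 12 libraries. The rule kept 90 of 119 such entries among 24347 entries in all. Of these, 51 were C/D box RNAs (Snord), 33 were H/ACA box RNAs (Snora) and 6 were Cajal body RNAs (Scarna). Of the remaining 29 entries, 19 were listed at 0 in every library and 10 were above 0 in some library but below the rule.

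The 12 libraries formed 4 groups of 3 biological replicates. Cells received a control siRNA (siControl) or a siRNA against Ncoa4 (siNCOA4), the receptor that delivers ferritin to the lysosome, both by liposome-mediated transfection. In the groups siControl+DFO and siNCOA4+DFO, the cells were also treated with desferrioxamine (DFO), an iron chelator, at 100 µM for 24 h. All libraries came from 1 cell line and were made from total RNA with a stranded low-input kit. The sources used here do not say whether replicates came from separate cultures started apart. The p-values therefore rest on the spread between these libraries, with each gene's spread drawn towards that of genes of like FPKM. Ncoa4 lay between 6.02 and 6.46 FPKM in siControl and between 7.52 and 8.70 in siControl+DFO, against 0.770 to 0.952 in siNCOA4 and 0.850 to 1.57 in siNCOA4+DFO. Of 10 neuronal markers fixed for a check of the label, 3 passed the same filter on low values. These were Tubb3 (4.56 to 13.6 FPKM), Syn1 (4.08 to 6.61) and Dlg4 (5.95 to 15.1). Of the others, Rbfox3, Map2 and Snap25, which mark mature neurons, did not exceed 0.179 FPKM in any library. The intermediate filament gene Vim lay between 1169 and 1662 FPKM. Of 5 mesenchymal markers, 5 fell after DFO and 5 after both treatments, and 3 fell in siNCOA4 at an adjusted p below 0.05. Their part in the results below was not tested, and in bulk RNA fewer cells of a type and less RNA per cell cannot be told apart.

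snoRNAs guide chemical marks onto ribosomal RNA in the nucleolus. C/D box RNAs pair with their target and bring fibrillarin, which adds methyl groups to the ribose, whereas H/ACA box RNAs bring dyskerin, which turns uridine into pseudouridine. Cajal body RNAs do the same for spliceosomal RNAs. In mammals most of these RNAs are cut out of the introns of host genes, many of which encode ribosomal proteins, and they carry no poly(A) tail.

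In the GENCODE annotation of GRCm38, 86 of the 90 members lay inside a gene on the same strand, 79 of them in an intron and 7 overlapping an exon. The hosts of 22 members were not protein-coding, and 4 members had no host. A fragment inside a member can stem from the small RNA or from the unspliced host transcript, and the FPKM do not separate these. The sequences below, from GENCODE transcripts, belong to the members that the comparisons turn on. They show the boxes that define each class, which are also where the 2 classes can be told apart by letters. Capitals mark the C box (TGATGA within the first 25 bases), the D box (CTGA within the last 25 bases) and, in the H/ACA class, the ACA near the end.

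The first is Snord66, in an intron of Eif4g1 at chr16:20684239-20684313 on the plus strand. The next 4 lie in introns of the ribosomal protein gene Rpl13a on the minus strand, at chr7:45127382-45127464 (Snord32a), chr7:45126864-45126947 (Snord33), chr7:45126601-45126670 (Snord34) and chr7:45126346-45126435 (Snord35a). Snord82 lies in an intron of Ncl, which encodes nucleolin, at chr1:86356261-86356330 on the minus strand. Snord22 overlaps an exon of the noncoding host Snhg1 at chr19:8725866-8725991 on the plus strand. It held the most fragments among the members of 53 to 140 bases.
Snord66: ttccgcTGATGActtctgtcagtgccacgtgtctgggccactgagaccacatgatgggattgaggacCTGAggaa
Snord32a: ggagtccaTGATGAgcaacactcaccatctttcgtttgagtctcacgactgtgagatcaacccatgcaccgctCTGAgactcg
Snord33: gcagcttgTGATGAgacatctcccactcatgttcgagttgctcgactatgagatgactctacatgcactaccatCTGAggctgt
Snord34: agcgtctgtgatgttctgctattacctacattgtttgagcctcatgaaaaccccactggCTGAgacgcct
Snord35a: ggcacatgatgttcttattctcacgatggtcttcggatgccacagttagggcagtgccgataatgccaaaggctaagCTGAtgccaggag
Snord82: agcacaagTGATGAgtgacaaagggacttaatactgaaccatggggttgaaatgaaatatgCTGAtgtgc
Snord22: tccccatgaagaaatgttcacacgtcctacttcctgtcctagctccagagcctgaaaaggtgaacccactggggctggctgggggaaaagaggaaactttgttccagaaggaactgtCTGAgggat

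Of the H/ACA members, Snora3 lies in an intron of the ribosomal protein gene Rpl27a at chr7:109520120-109520251 on the plus strand, and Snora65 in an intron of Rpl12 at chr2:32963291-32963420 on the plus strand. Snora44 overlaps an exon of the noncoding host Snhg12 at chr4:132309941-132310069 on the plus strand and has no ACA within 8 bases of its annotated end. Scarna8 lies in an intron of Haus6 at chr4:86586453-86586583 on the minus strand.
Snora3: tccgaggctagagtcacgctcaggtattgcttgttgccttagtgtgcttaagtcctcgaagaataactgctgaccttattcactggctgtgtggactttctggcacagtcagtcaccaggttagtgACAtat
Snora65: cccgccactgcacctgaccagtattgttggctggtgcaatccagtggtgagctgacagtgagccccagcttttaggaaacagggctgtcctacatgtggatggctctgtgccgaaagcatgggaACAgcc
Snora44: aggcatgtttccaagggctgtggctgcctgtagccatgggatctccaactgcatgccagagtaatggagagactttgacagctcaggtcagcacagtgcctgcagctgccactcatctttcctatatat
Scarna8: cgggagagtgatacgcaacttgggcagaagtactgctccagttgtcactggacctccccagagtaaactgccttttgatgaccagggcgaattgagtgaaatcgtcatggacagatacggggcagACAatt

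Both a C box and a D box were found in 34 of 51 Snord members and in 0 of 33 Snora members. A C box, with or without a D box, was found in 35 Snord members, and a D box, with or without a C box, in 50. Snord34, Snord35a and Snord22 above carry the D box letters without a C box of exactly these letters. ACA within 8 bases of the end was found in 31 of 33 Snora members and in 4 of 51 Snord members. Of all 1558 snoRNA and Cajal body RNA transcripts in GENCODE, 20.3% held both C and D boxes and 47.6% held ACA near the end.

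The members are short, and this sets what their FPKM hold. In the RefSeq table, which gives the lengths that the FPKM follow, the median length was 68 bases for Snord (48 to 221), 121 for Snora (61 to 198) and 121 for Scarna (62 to 275). Low FPKM of members of equal length were mostly whole multiples of 1 step in each library, the worth of 1 sequenced fragment. Of 482 member values below 8 fragments, 430 (89.2%) lay within 0.1 of a whole number, over the 80 members of 53 to 140 bases. The step was fitted to values of short RNA genes that include these, so this share is not an independent check. Of the 80, 7 were not resolved into whole fragments: Snora26, Snora28, Snora62, Snord1a, Snord35b, Snord45c and Snord7. They stay in the fragment numbers below, with Snora26 and Snora62 among the members of 100 or more fragments. The remaining 10 members were longer or shorter than that range and keep their FPKM without a fragment number here.

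The worth of 1 fragment fell steeply with length. In siControl it averaged 1469 FPKM for a gene of 58 bases, 603 at 68 bases and 71.5 at 98 bases. A single fragment of Snord66, listed with 58 bases, thus equals more FPKM than the mean of 27 of the 33 Snora members. Levels of Snord and Snora members in FPKM are therefore values per effective length, and not numbers of molecules seen.

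**Figure D1:**
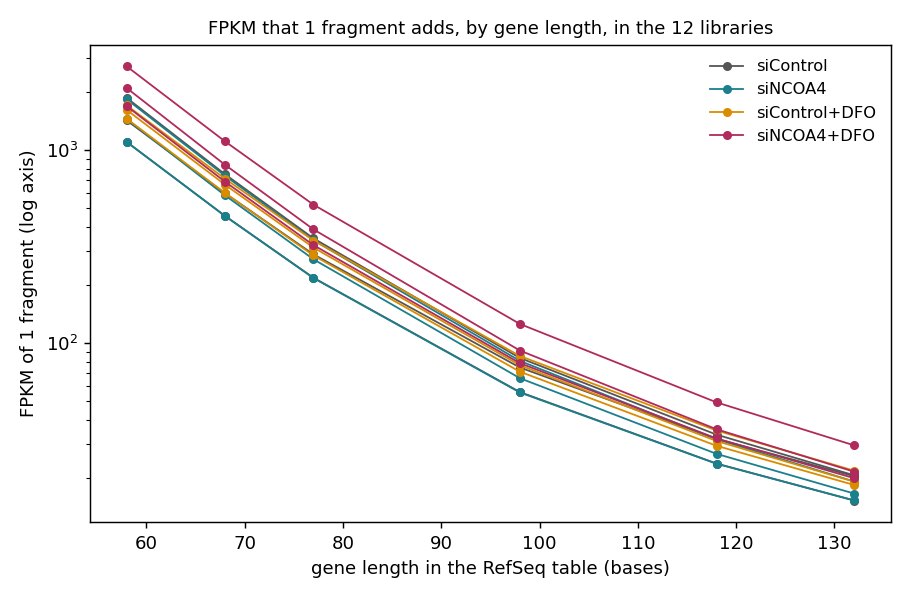
FPKM that 1 fragment adds (log axis) against gene length in bases, 1 line per library, coloured by group. The value falls from 1469 FPKM at 58 bases to 71.5 at 98 bases in the siControl mean, and the lines of siNCOA4+DFO lie highest on average at each length.

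The worth also differed between libraries. At 68 bases it was 599, 457 and 752 FPKM in the siControl libraries, 585, 457 and 739 in siNCOA4, 713, 664 and 601 in siControl+DFO, and 688, 842 and 1114 in siNCOA4+DFO. The group means relative to siControl were 0.984 in siNCOA4, 1.09 in siControl+DFO and 1.46 in siNCOA4+DFO. At 98 bases they were 0.944, 1.09 and 1.38. The same number of fragments therefore gave a higher FPKM in siNCOA4+DFO than in siControl, and the reason was not tested.

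Library depth differed too. Relative depth, taken from the steps of low, longer genes, lay between 1 and 1.25 in siControl, 1.26 and 1.41 in siNCOA4, 1.06 and 1.25 in siControl+DFO, and 0.928 and 1.20 in siNCOA4+DFO, with siControl replicate 1 set to 1. At equal depth the worth at 68 bases was 1.37 times the siControl mean in siNCOA4+DFO, 1.12 times in siControl+DFO and 1.16 times in siNCOA4. Results below are from the deposited FPKM. Counts of calls and named members that no longer passed are also given with short RNA genes of 53 to 140 bases set to an equal worth of 1 fragment at equal depth. In that alternative, the 10 members outside this range, among them Snord15a and Snord15b, keep their deposited FPKM. This alternative was chosen after the data were seen.

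The number of fragments per member was small. Over 12 libraries, the 80 members with fragments held between 3.00 and 9571, with a median of 46.7, and 14 members held fewer than 12. A total of 27 members held 100 or more and 5 held 1000 or more. Snord22 alone held 39.9% of the 23977 fragments of the 80 members and the 6 highest of the 80 held 69.9%. Members without a fragment number, among them Snord15b and Snord15a, are not in these shares. The residual SD of log2 FPKM had a median of 6.53 in the members under 12 fragments, 3.06 in the 39 members of 12 to 99 fragments and 0.358 in the 27 members of 100 or more, which limits what the fits can show for the first 2 sets.

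Detection followed class. Above 0 in all 12 libraries were 26 of 33 Snora members, 24 of 51 Snord members and 3 of 6 Scarna members. Another 7 Snora, 16 Snord and 1 Scarna were above 0 in 6 to 11 libraries, and 0 Snora, 11 Snord and 2 Scarna in 3 to 5. A library held between 70 and 83 members above 0. The siControl libraries held 73, 78 and 73, the siNCOA4 libraries 72, 79 and 70, the siControl+DFO libraries 80, 74 and 80, and the siNCOA4+DFO libraries 78, 83 and 72, so the groups overlapped. No member was above 0 in all 3 libraries of a treated group and at 0 in all 3 siControl libraries, or the reverse. At the edge of the rule, the third highest value was 35.3 FPKM in Scarna3a, the member nearest the threshold, 59.8 in Snora31 and 72.5 in Snora47. Just outside, Scarna10, Snord37 and Snord42a reached 0.5 FPKM in 2 libraries each, and Snora36b, above 0 in 3 libraries, never exceeded 0.000297 FPKM.

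The members held a large share of the summed FPKM. They made up 30.1% to 31.2% of the FPKM of a siControl library, 28.7% to 30.5% in siNCOA4, 35.8% to 38.7% in siControl+DFO and 41.3% to 42.7% in siNCOA4+DFO. Their summed FPKM was 190628 ± 4745 (SD, n = 3) in siControl, 171304 ± 10193 in siNCOA4, 262011 ± 19050 in siControl+DFO and 300684 ± 13607 in siNCOA4+DFO. Both groups with DFO lay above both groups without DFO, and siNCOA4+DFO lay above siControl+DFO, without overlap.

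By class, the summed FPKM of the 51 Snord members was 165198, 164423 and 170070 in siControl and 151537, 158700 and 146127 in siNCOA4, a ratio of means of 0.913. It was 247357, 216356 and 237754 in siControl+DFO, 1.40 times siControl, and 272528, 254288 and 270450 in siNCOA4+DFO, 1.60 times siControl. The 4 groups did not overlap for this class. The 33 Snora members summed to 25520, 20275 and 22592 in siControl and 15465, 23354 and 16562 in siNCOA4, a ratio of 0.810 with overlapping groups. They summed to 30223, 24656 and 25851 in siControl+DFO and 36280, 28726 and 34223 in siNCOA4+DFO, 1.18 and 1.45 times siControl, and only the second of these did not overlap siControl. The 6 Scarna members summed to between 673 and 2250 FPKM per library, and the groups overlapped siControl in each comparison.

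The sums in fragments were less ordered. At equal depth, 47 Snord members gave 1064 ± 172 (SD, n = 3) fragments in siControl, 771 ± 226 in siNCOA4, 1234 ± 166 in siControl+DFO and 1186 ± 144 in siNCOA4+DFO. The ratios to siControl were 0.725, 1.16 and 1.11, and each of the 3 treated groups overlapped siControl. For 29 Snora members the means were 641 ± 98.5, 496 ± 188, 727 ± 99.4 and 755 ± 129, with ratios of 0.774, 1.13 and 1.18, again with overlap. Relative to siNCOA4, siNCOA4+DFO was 1.54 times higher in Snord fragments without overlap and 1.52 times higher in Snora fragments with overlap. The FPKM sums varied less between replicates than the fragment sums: in siControl the Snord SD was 3061 of 166564 FPKM, against 172 of 1064 fragments.

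**Figure D2:**
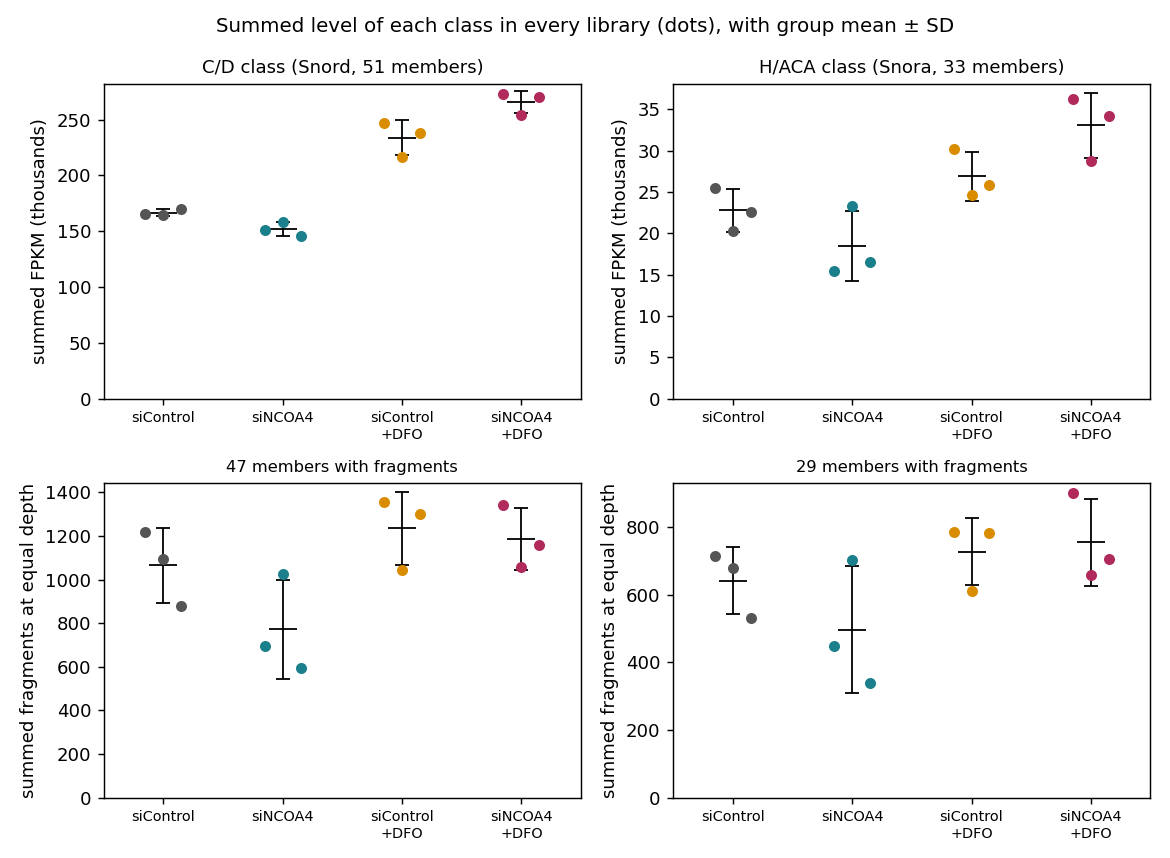
Summed level of the C/D class (left) and the H/ACA class (right) in each library, as deposited FPKM (top, axis divided by 1000) and as fragments at equal depth (bottom), with dots for libraries and bars for group mean ± SD. In FPKM both classes are highest on average in siNCOA4+DFO, whereas in fragments the siControl+DFO and siNCOA4+DFO libraries overlap siControl.

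Single members were tested with limma on log2(FPKM + 0.1) across all 11924 genes that passed the filter, and were called at a fold change above 2 and a Benjamini-Hochberg adjusted p below 0.05. The fit draws the spread of each gene towards that of genes of like FPKM. The SE was thereby wider than the member's own spread gives for Snord22, and narrower for Snord66. After Ncoa4 knockdown at normal iron, 1 of 90 members was called, Snora3, which fell, against 1.78% of all genes called. Its FPKM was 119, 155 and 155 in siControl and 24.8, 66.2 and 88.0 in siNCOA4, without overlap, a log2 fold change of -1.44 ± 0.41 (SE) with an adjusted p of 0.0404. These values rest on 4, 7 and 5 fragments against 1, 3 and 3, rounded to whole fragments as in all such numbers here. At an adjusted p below 0.05 alone the count was also 1, against 11.7% of all genes. The call was lost in 10 of 23 alternatives, among them the compared groups alone, no filter, no trend, robust moderation and leaving out any 1 siControl library, with adjusted p from 0.0226 to 0.105 and log2 fold changes from -1.81 to -0.90 over all 23.

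Most other members lay lower without passing the test. Of the 90 members, 64 had a log2 fold change below 0 and 26 above 0, with a median of -0.26 against 0.0048 over all genes. The medians were -0.26 in Snord, -0.28 in Snora and -0.17 in Scarna, and 23 of the 27 members with 100 or more fragments were below 0. In 5 members all siNCOA4 values lay below all siControl values, against 17.6% of all genes. They were Snora3, Snora7a, Snora74a, Snord22 and Snord83b. Snord22 was 20326, 16123 and 16849 FPKM in siControl and 11155, 14117 and 13024 in siNCOA4, with an adjusted p of 0.352.

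After DFO alone, 4 of 90 members were called, all higher, against 18.8% of all genes: Snord66, Snord82, Snord34 and Snord32a. At an adjusted p below 0.05 alone, 8 members passed, all higher, against 53.4% of all genes. Of the 90, 69 had a log2 fold change above 0 and 20 below, with a median of 0.34 against -0.01 over all genes. The median was 0.41 in Snord, 0.34 in Snora and -0.01 in Scarna. In 17 members the siControl+DFO libraries all lay above siControl, against 31.1% of all genes. In 0 members they all lay below, against 3535 of all 11924 genes.

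Snord82 had 601, 1377 and 4546 FPKM in siControl and 5718, 4002 and 4822 in siControl+DFO. The groups overlapped through siControl replicate 3, and the log2 fold change was 1.62 ± 0.58 (SE, adjusted p = 0.0312). Snord34 rose from 706, 3780 and 3583 to 6719, 7072 and 5679 FPKM, without overlap (log2 1.61 ± 0.62, adjusted p = 0.0445). Snord32a had 1049, 2540 and 2011 in siControl against 5209, 4537 and 1863 in siControl+DFO, with overlap (log2 1.01 ± 0.39, adjusted p = 0.0449). Snord34 and Snord32a share the host Rpl13a, whose own log2 fold change was -0.05 ± 0.14 (adjusted p = 0.773). With an equal worth of 1 fragment, 2 of the 4 calls were left, Snord66 and Snord82. In limma, 0 members were called without the filter on low values, without the mean-variance trend or with robust moderation. The fit as reported had 14 of 90 members at an unadjusted p below 0.05, against 7009 of all 11924 genes.

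Snord66 rested on 16 fragments over 12 libraries. It held 0, 1 and 0 fragments in siControl, 2, 3 and 2 in siNCOA4, 1, 4 and 1 in siControl+DFO and 0, 1 and 1 in siNCOA4+DFO. In FPKM these were 0, 1113 and 0, then 2916, 3343 and 3676, then 1718, 6499 and 1465, and then 0, 2111 and 2738. In fragments, siNCOA4 lay above siControl, while siControl+DFO and siNCOA4+DFO shared the value of 1 fragment with siControl replicate 2. That siControl+DFO did not overlap siControl in FPKM thus rests on the differing worth of 1 fragment between libraries. The fit gave a log2 fold change of 10.15 ± 3.82 (SE) for DFO with an adjusted p of 0.0407 and one of 10.53 ± 3.82 for siNCOA4 with an adjusted p of 0.1, sizes that depend on the pseudocount because 2 siControl libraries were at 0. Its host Eif4g1, a translation initiation factor, was lower in siControl+DFO (log2 -0.31 ± 0.08, adjusted p = 0.00659) and in siNCOA4 (log2 -0.38 ± 0.08, adjusted p = 0.0104).

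After knockdown and DFO together, 5 of 90 members were called against siControl, all higher, against 15.2% of all genes: Snord82, Snord32a, Snord35a, Snora5c and Snora65. At an adjusted p below 0.05 alone, 13 members passed, all higher, against 48.8% of all genes. Of the 90, 78 had a log2 fold change above 0 and 12 below, with a median of 0.63 against 0.01 over all genes. The median was 0.71 in Snord, 0.57 in Snora and 0.34 in Scarna. All 27 members with 100 or more fragments were above 0, with a median of 0.57. In 23 members the 3 libraries all lay above siControl, against 28.5% of all genes. In 0 members they all lay below, against 3134 of all 11924 genes.

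With an equal worth of 1 fragment, 4 members passed at an adjusted p below 0.05 alone. Of these 4, 2 were among the 10 members that keep their deposited FPKM in that alternative. Of the 27 members with 100 or more fragments, 23 were above 0, with a median of 0.21. The median of all 90 was 0.37, and 2 members were called, Snord35a and Snord82. Snord35a had 2344, 1758 and 1856 FPKM in siControl and 5051, 4402 and 7310 in siNCOA4+DFO, without overlap (log2 1.47 ± 0.30, adjusted p = 0.00149). It held 19, 19 and 13 fragments against 38, 28 and 34. Snord82 reached 4834, 6796 and 7833 FPKM, all above siControl (log2 2.03 ± 0.58, adjusted p = 0.0112), on 7, 8 and 7 fragments against 1, 3 and 6. Snord32a reached 5571, 5582 and 4154 FPKM (log2 1.53 ± 0.39, adjusted p = 0.00617), also without overlap.

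**Figure D3:**
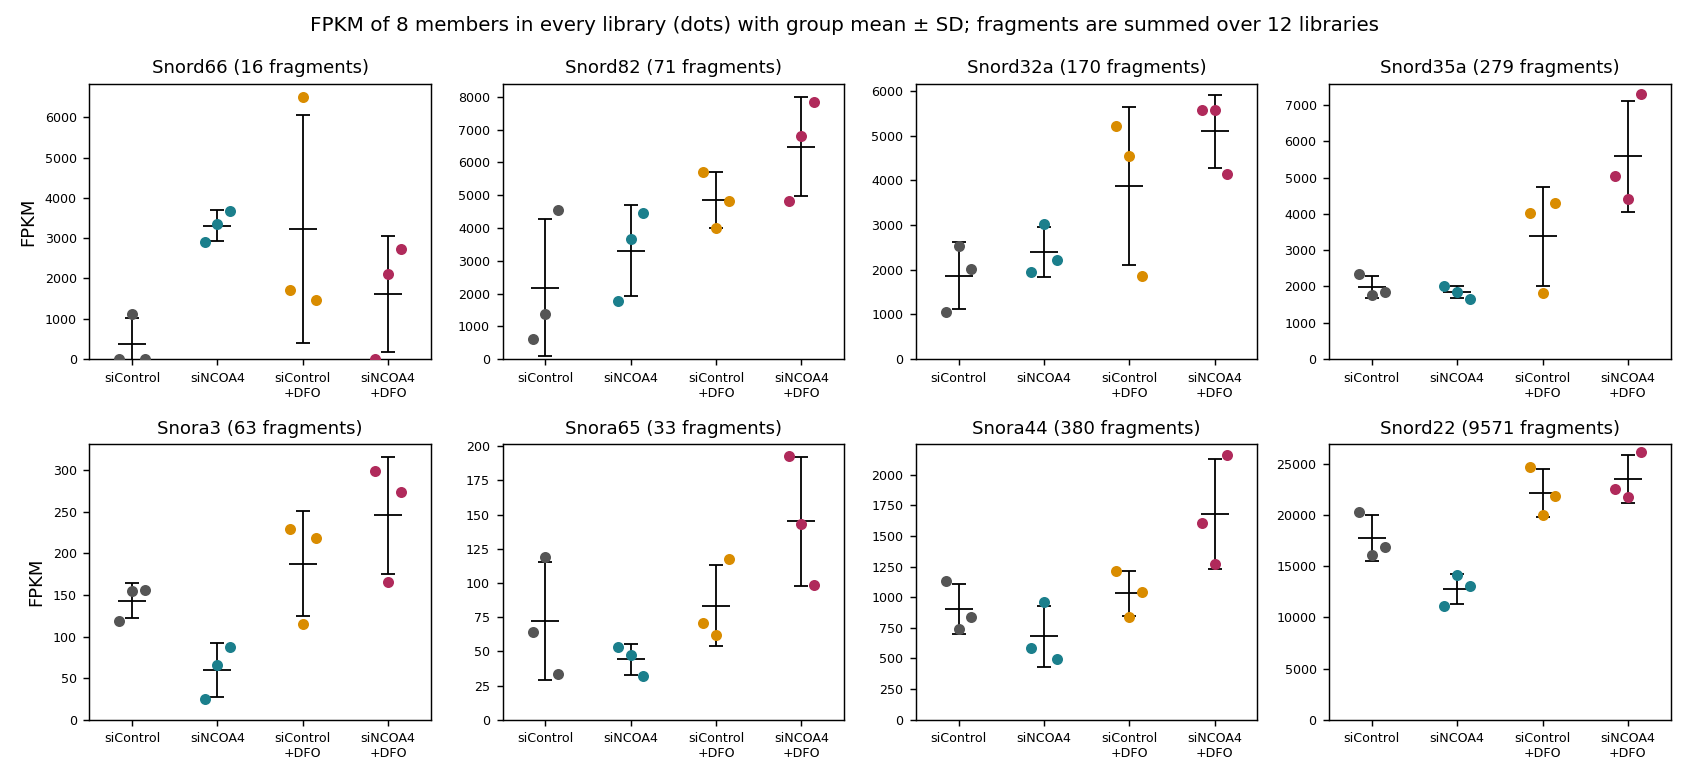
FPKM of 8 members in every library (dots) with group mean ± SD, with the number of fragments over 12 libraries in each title. Snord35a, Snora44 and Snora65 are highest on average in siNCOA4+DFO, Snora3 is lowest in siNCOA4, and the Snord66 values come from 16 fragments.

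Snora5c had 65.0, 242 and 144 FPKM in siControl and 339, 391 and 323 in siNCOA4+DFO, without overlap (log2 1.41 ± 0.47, adjusted p = 0.0263), on 1, 5 and 2 fragments against 5, 5 and 3. Snora65, the guide hosted by Rpl12, had 64.1, 119 and 33.6 against 193, 143 and 98.7, with overlap (log2 1.14 ± 0.40, adjusted p = 0.0343), on 2, 5 and 1 fragments against 6, 4 and 2. Of the other members in the Rpl13a cluster, Snord33, with 1343 fragments the best counted of the 4, differed from siControl by 0.28 ± 0.35 on the log2 scale (adjusted p = 0.533) and Snord34 by 0.87 ± 0.62 (adjusted p = 0.265). Differences between the 4 were not tested. Rpl13a itself was at -0.15 ± 0.14 (adjusted p = 0.381).

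The comparison of siNCOA4+DFO with siNCOA4 gave the most calls among members, at a share near that of all genes. Here 10 of 90 members were called, all higher, against 11.4% of all genes: Snora3, Snord100, Snora65, Snord35a, Snora44, Snora5c, Snord16a, Snord32a, Snora2b and Snora7a. Their hosts were the ribosomal protein genes Rpl27a, Rps12, Rpl12, Rpl13a, Rpl4 and Rpl32, the genes Tbrg4 (Snora5c) and Kansl2 (Snora2b), and noncoding Snhg12 (Snora44). At an adjusted p below 0.05 alone, 31 members passed, all higher, against 42.7% of all genes, and 19 of them were among the 27 members with 100 or more fragments. The median over the 90 was 0.85, with 80 above 0 and 10 below. In 32 members the 3 libraries all lay above siNCOA4, against 27.6% of all genes. In 1 member, Snord66, they all lay below, against 2988 of all 11924 genes.

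Snora3 had 299, 165 and 273 FPKM in siNCOA4+DFO against 24.8, 66.2 and 88.0 in siNCOA4 (log2 2.18 ± 0.41, adjusted p = 0.00101). Snora44 had 1606, 1268 and 2160 against 583, 960 and 497 (log2 1.33 ± 0.26, adjusted p = 0.00144), on 48, 34 and 42 fragments against 21, 39 and 15. Snord35a was higher by 1.57 ± 0.30 on the log2 scale (adjusted p = 0.00116) and Snord100 by 1.90 ± 0.65 (adjusted p = 0.0317). In each of the first 3 the groups did not overlap in FPKM, while the fragments of Snora44 did. With an equal worth of 1 fragment, 5 of the 10 calls were left and 13 members passed at an adjusted p below 0.05 alone. Of these 13, 6 were among the 10 members that keep their deposited FPKM in that alternative. The median over all 90, which includes those 10, was 0.71. All 27 well counted members stayed above 0.

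Against siControl+DFO, siNCOA4+DFO gave 0 called members, against 2.09% of all genes. At an unadjusted p below 0.05 in limma there were 10 of 90 members, against 3842 of all 11924 genes. The median log2 fold change of the members was 0.23, and 0.08 with an equal worth of 1 fragment. The interaction, the difference between the knockdown effects with and without DFO, passed at an adjusted p below 0.05 in 0 members, against 2.1% of all genes. At an unadjusted p below 0.05 it had 11 of 90 members, against 2167 of all 11924 genes. Its median was 0.45 on the log2 scale, with 67 of 90 members above 0. Snord66 had an interaction of -15.46 ± 5.41 (SE, adjusted p = 0.153). The comparisons against siControl share its 3 libraries.

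**Figure D4:**
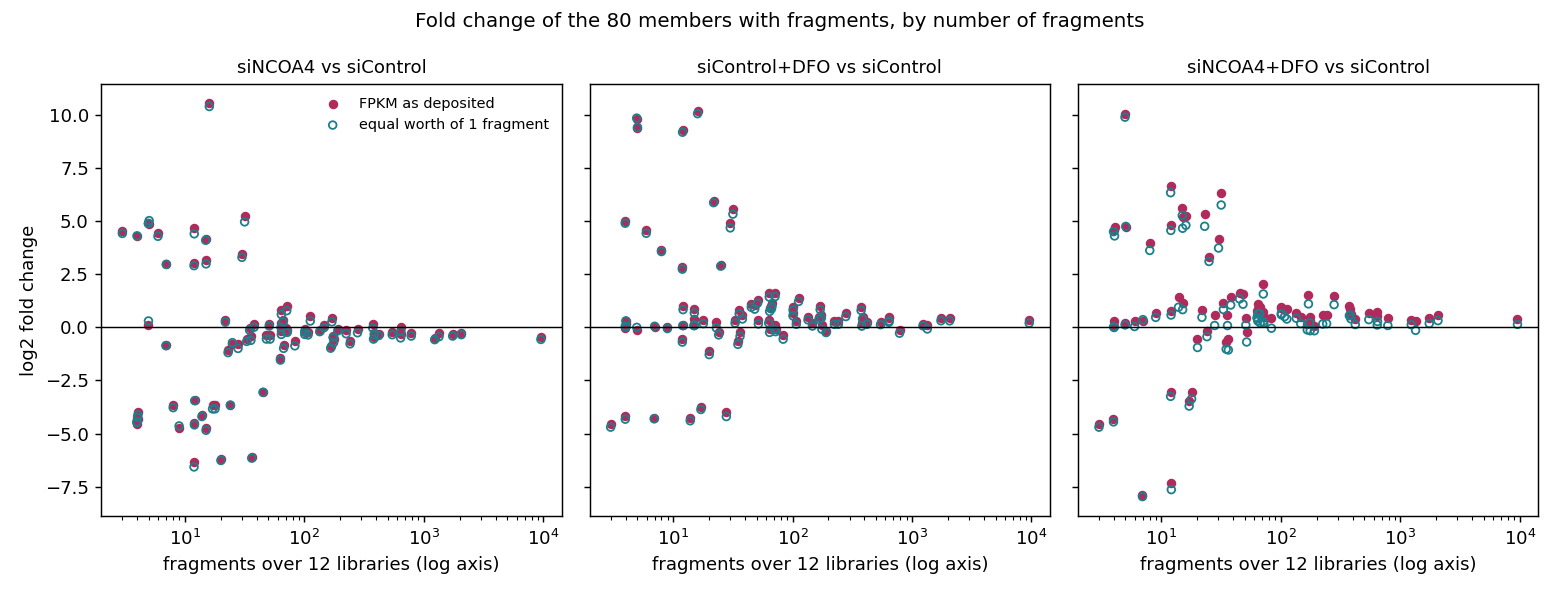
Log2 fold change of the 80 members with fragments against their fragments over 12 libraries (log axis), from deposited FPKM (filled) and at an equal worth of 1 fragment (open), in the 3 comparisons with siControl. Changes beyond 2.5 on the log2 scale in either direction occur among members with fewer than 100 fragments, and in siNCOA4+DFO the median of the 27 members with 100 or more fragments is 0.57 filled and 0.21 open.

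The most abundant C/D members in FPKM were Snord33, Snord22, Snord1b, Snord15b and Snord55, with means over 12 libraries of 23651, 19041, 17018, 15734 and 15531. The first 3 are hosted by Rpl13a, Snhg1 and the noncoding gene 1810032O08Rik, and Snord15b by Rps3. Snord55 had 12385, 12598 and 15674 FPKM in siControl, 9199, 12795 and 10673 in siNCOA4, 19388, 17818 and 16742 in siControl+DFO and 19734, 20669 and 18703 in siNCOA4+DFO. Both groups with DFO lay above both groups without it. The adjusted p was 0.233 for DFO, 0.125 for both treatments and 0.0250 for siNCOA4+DFO against siNCOA4 (log2 0.87 ± 0.28), where an equal worth of 1 fragment gave 0.61 ± 0.36 (adjusted p = 0.202). Snord1b showed the same order without overlap between groups with and without DFO, with log2 fold changes of 0.48 ± 0.30, 0.71 ± 0.30 and 0.72 ± 0.30 (adjusted p = 0.195, 0.0636 and 0.0674).

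The most abundant H/ACA members were Snora21, Snora33, Snora24, Snora74a and Snora16a, with means of 3830, 3594, 3033, 2150 and 1788 FPKM. Snora21, hosted by Rpl23, was higher in siNCOA4+DFO than in siControl (log2 0.57 ± 0.21, adjusted p = 0.0425) and than in siNCOA4 (log2 0.83 ± 0.21, adjusted p = 0.0079). With an equal worth of 1 fragment neither passed, at 0.31 ± 0.28 (adjusted p = 0.376) and 0.66 ± 0.28 (adjusted p = 0.0734). Snora24, hosted by Snhg8, had a log2 fold change of 0.42 ± 0.18 after DFO (adjusted p = 0.0644) and Snora33, hosted by Rps12, one of -0.12 ± 0.24 (adjusted p = 0.705). Snora74a and Snora16a were lower in siNCOA4 by -0.37 ± 0.15 and -0.50 ± 0.19 on the log2 scale without passing (adjusted p = 0.147 and 0.114).

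The 15 members with the smallest spread within groups, among those above 0 in all libraries, had residual SDs from 0.157 (Snord17) to 0.281 (Snora81) on the log2 scale. They were Snord17, Snora64, Snord22, Snord55, Snora74a, Snord15b, Snord1b, Snora24, Snord33, Snora16a, Snord15a, Snora21, Scarna13, Scarna8 and Snora81. Snord17, a long C/D RNA in an intron of Snx5, had 1669, 1372 and 1526 FPKM in siControl, 1061, 1492 and 1221 in siNCOA4, 2188, 2020 and 2003 in siControl+DFO and 2212, 2059 and 2411 in siNCOA4+DFO. Its log2 fold changes were 0.45 ± 0.14 after DFO (adjusted p = 0.0193) and 0.55 ± 0.14 after both (adjusted p = 0.00687). Snord17 is among the members too long for the fragment correction, so both values are from deposited FPKM. Snora64, hosted by Rps2, rose by 0.67 ± 0.14 after both treatments (adjusted p = 0.00195) and had a log2 fold change of 0.27 ± 0.14 after DFO (adjusted p = 0.134). With an equal worth of 1 fragment Snora64 did not pass after both treatments, at 0.36 ± 0.19 (adjusted p = 0.139).

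Among the Cajal body RNAs, Scarna13, Scarna6 and Scarna8 were above 0 in all libraries. Scarna13 had 456 ± 121 (SD, n = 3) FPKM in siControl, 387 ± 47.3 in siNCOA4, 500 ± 103 in siControl+DFO and 493 ± 53.4 in siNCOA4+DFO. Scarna8 had 179 ± 31.5, 163 ± 22.6, 170 ± 20.5 and 255 ± 65.8, with a log2 fold change of 0.62 ± 0.19 for siNCOA4+DFO against siNCOA4 (adjusted p = 0.0214), on 5 to 9 fragments per library. With an equal worth of 1 fragment this was 0.43 ± 0.21 (adjusted p = 0.125). Scarna6 ranged from 84.9 to 217 FPKM over all libraries. Scarna17 was listed at about 1 fragment in 4 libraries, with 1272, 1179, 1157 and 1430 FPKM, and at 0 in the other 8, and Scarna3a and Scarna3b held 7.0 and 24.1 fragments in all. None of the 6 was called in any comparison, and the summed Scarna level moved with the libraries that held the 1 fragment of Scarna17.

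Host genes were compared with their members. Of 84 members with a host that passed the filter (65 hosts), 26 lay in 20 ribosomal protein genes. Across the 84, the correlation of member and host log2 fold changes was r = 0.06 for DFO and -0.07 for both treatments, and across the 24 with 100 or more fragments it was 0.06 and 0.03. These are descriptions over genes that share libraries and in part hosts. After both treatments 17 of those 24 members were higher while their host was lower, where all 24 members were higher and 14 of their 19 hosts lower. These values are from deposited FPKM, in which 1 fragment of a short gene was worth more in siNCOA4+DFO than in siControl. With an equal worth of 1 fragment, r across the 24 was 0.02. Of the 27 members with 100 or more fragments, with or without a tested host, 23 were then above 0, with a median of 0.21. Of the 19 hosts, 5 were called, 4 higher, against 15.2% of all genes.

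The noncoding hosts Snhg1, Snhg12 and 1810032O08Rik rose after DFO. Snhg1 had 64.8 ± 10.1 (SD, n = 3) FPKM in siControl and 407 ± 62.3 in siControl+DFO (log2 2.65 ± 0.16, adjusted p = 8.44e-08), while Snord22, which overlaps its exon, differed by 0.32 ± 0.30 on the log2 scale (adjusted p = 0.398). Snhg12 rose by 1.91 ± 0.16 (adjusted p = 9.31e-07), while its members Snora16a and Snora44 had 0.17 ± 0.19 and 0.20 ± 0.26 (adjusted p = 0.467 and 0.551). The host of Snord1b, 1810032O08Rik, rose by 2.08 ± 0.34 (adjusted p = 0.000282), against 0.48 ± 0.30 for Snord1b. Whether member and host differed was not tested gene by gene.

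**Figure D5:**
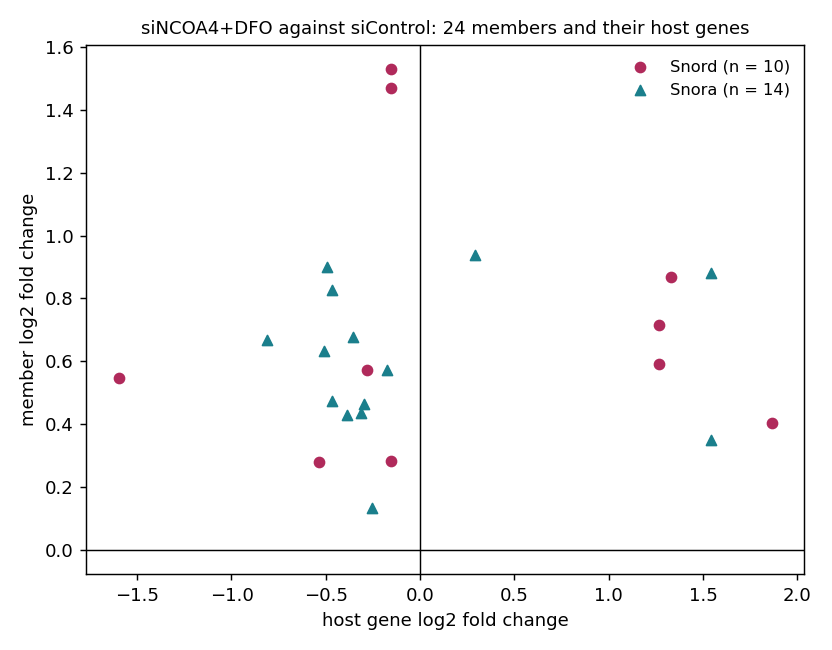
Log2 fold change of 24 members with 100 or more fragments against that of their host gene, for siNCOA4+DFO relative to siControl, with circles for Snord and triangles for Snora. All members lie above 0 while hosts spread on both sides of 0, with r = 0.03.

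Proteins that bind and mature these RNAs were read from lists of the C/D core, the H/ACA core, Cajal bodies, assembly and processing. Their counts at an adjusted p below 0.05 stand against 53.4% of all genes after DFO, 48.8% after both treatments and 11.7% after knockdown alone. Of the 4 C/D core genes tested, Nop58, a core scaffold protein, rose after DFO (log2 0.73 ± 0.09, adjusted p = 3.72e-05) and Nhp2l1, which binds the kink-turn formed by the boxes, fell, while Fbl, the methyltransferase, fell after both treatments (log2 -0.62 ± 0.13, adjusted p = 0.00144) and had a difference of -0.40 ± 0.13 in siNCOA4 (adjusted p = 0.0619). Of the 6 H/ACA genes, Dkc1, the pseudouridine synthase, fell by 0.42 on the log2 scale after DFO (SE 0.10, adjusted p = 0.00373) and by 0.80 after both (SE 0.10, adjusted p = 3.87e-05). After DFO 2 of the 6 rose and 2 fell, and after both 0 rose and 2 fell, none beyond 2-fold.

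Of the 7 Cajal body genes, Wrap53, which brings Cajal body RNAs to the Cajal body, was called after DFO with 23.2 ± 3.82 FPKM against 7.67 ± 0.94 (SD, n = 3; log2 1.58 ± 0.18, adjusted p = 1.48e-05) and after both (log2 1.55 ± 0.18). Smn1, part of the complex that assembles spliceosomal particles, fell by 0.95 on the log2 scale in siNCOA4 (SE 0.16, adjusted p = 0.00322) and by 1.12 in siNCOA4+DFO (SE 0.16), which was called. Coil, which encodes the Cajal body scaffold coilin, fell after DFO (log2 -0.82 ± 0.26, adjusted p = 0.0174). Of the 7 assembly genes, 3 rose and 2 fell after DFO, and 0 rose and 2 fell after both. Of the 5 processing genes, 3 rose after DFO and 2 after both, and 0 fell in either. After knockdown alone, 0 of the 4 C/D core, 0 of the 6 H/ACA and 0 of the 5 processing genes passed, 2 Cajal body genes fell, and 1 Cajal body and 1 assembly gene rose.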

How the data were processed

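RNA of HT22 cells was sequenced in 12 libraries, 3 per group. The authors deposited 1 FPKM value per gene and library. The submitters' processing notes name Trimmomatic 0.33, FastQC, HISAT2 2.1.0, featureCounts, edgeR and the build mm10, and the tool that computed FPKM is not given in the sources used here. Depth is unknown except relative to other libraries, from the step that 1 fragment adds to low values, so no counting intervals are given. Entries sharing a name (4) were left out.

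Groups were taken from the labels. Genes that reached 0.5 FPKM in 3 or more libraries (11924) were fitted as log2(FPKM + 0.1) in 1 limma model of 4 groups (limma 3.58.1 in R 4.3.3; trend moderation, 8 residual and 4.07 prior degrees of freedom), with 5 comparisons between groups and the interaction, two-sided p-values and Benjamini-Hochberg adjustment over all genes. Fold changes are on that scale, which understates changes of genes near 0.1 FPKM. For short members at 0 in some libraries, the sizes are large and depend on the pseudocount, as 1 fragment far exceeds 0.1 FPKM. The fits were tested on simulated data. Class sums were not tested and are given as a description. Fragments were obtained for genes of 53 to 140 bases by dividing FPKM by the step of their length. Hosts, positions and sequences came from GENCODE vM21 on GRCm38. Other steps used Python 3.11.15, numpy 2.4.6, pandas 2.3.3, scipy 1.17.1 and matplotlib 3.10.9.

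The named members were Snord66, the 3 largest called rises and falls per comparison, the 5 highest Snord and Snora, all Scarna, the 15 steadiest members, those beside the threshold and hosts of these. Further members were named after their values were seen, where a count was small. The members and lists were chosen with earlier results of these data known. Alternatives covered the pseudocount, filter, scaling, moderation, replicate block, compared groups alone, each library left out and an equal worth of 1 fragment. The result for 1 host gene is not reported here.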

Additional observations from a re-analysis of the deposited data

Results flagged for a closer look

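The fitted DFO change of Snord66 had opposite signs without and with Ncoa4 knockdown, though the tests do not establish a reversal. The log2 fold change was 10.15 between siControl and siControl+DFO, where all 3 treated libraries lay higher in FPKM, though 2 of them held 1 fragment, as did siControl replicate 2, and -5.31 between siNCOA4 and siNCOA4+DFO, where all 3 lay lower. The second change was not called, with limma adjusted p from 0.156 to 0.923 over 23 alternatives. The interaction did not pass, with an adjusted p of 0.153 in limma, and the values rest on 0 to 4 fragments per library.

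Of the 10 entries below the level rule, 6 were at 0 in all siControl libraries and at 0.5 FPKM or more in a treated library. Snord43 reached 9424 FPKM in siNCOA4+DFO replicate 3 and Snord42a 8219 in siControl+DFO replicate 3. In siNCOA4+DFO replicate 1, Snord37 reached 2984, Snord19 reached 2649 and Snord73a reached 691 FPKM. Snord91a reached 915 FPKM in siNCOA4 replicate 2. Each was above 0 in 1 or 2 of the 12 libraries, so no group level can be read from them.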

How the results depend on the processing

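The number of members called depended on the settings in 4 comparisons. For siNCOA4 against siControl it went from 1 to 0 in the fit of the compared groups alone, without the filter, without the trend and with robust moderation. For DFO it went from 4 to 2 in the compared groups alone, with an equal worth of 1 fragment and with FPKM rescaled to a sum of 1e6, to 0 without the filter, without the trend and with robust moderation, and to 8 at an adjusted p alone. For siNCOA4+DFO against siControl it went from 5 to 3 (robust moderation, rescaling), 2 (equal worth) and 13 (adjusted p alone). Against siNCOA4 it went from 10 to 5 (no filter, no trend, robust moderation, equal worth), 4 (rescaling) and 31 (adjusted p alone). The median log2 fold change of all genes after DFO was -0.01 as reported and -0.18 on rescaling.

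Rescaling and equal worth moved the Snord ratio to siControl from 0.913 to 0.983 and 0.833 in siNCOA4, from 1.40 to 1.25 and 1.25 in siControl+DFO, and from 1.60 to 1.39 and 1.23 in siNCOA4+DFO. The Snora ratio went from 1.18 to 1.05 after DFO (rescaling) and from 1.45 to 1.26 and 1.23 after both. Under equal worth, these sums still hold the members outside 53 to 140 bases at deposited FPKM. The Scarna ratio in siNCOA4 went from 0.570 to 0.414 over all listed entries, 0.876 over members above 0 in all libraries, 0.413 without the highest member and 0.614 on rescaling. The cause was not tested.

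Leaving out 1 library gave 0 to 2 calls for siNCOA4, 1 (without siControl+DFO replicate 3) to 7 (without siControl replicate 2) for DFO, 5 to 11 (without siControl replicate 2) for both, 0 to 1 against siControl+DFO, 9 to 19 (without siNCOA4 replicate 2) against siNCOA4 and 0 to 1 for the interaction. The Scarna ratio ranged from 0.470 to 0.829 in siNCOA4 and from 1.21 to 2.13 after both, with 0.829 and 2.13 without siControl replicate 3. After DFO it was 1.01 and turned direction, from 0.640 without siControl+DFO replicate 1 to 1.47 without siControl replicate 3, and to 0.733 over all listed entries, 0.958 without the highest member and 0.888 on rescaling.

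Deviations from the group mean over all genes tested correlated between -0.127 and 0.116 among same-numbered libraries, so these showed no pairing by replicate number. The worth of 1 fragment at 68 bases did run alike by number in siControl (599, 457 and 752 FPKM) and siNCOA4 (585, 457 and 739). It did not in siControl+DFO (713, 664 and 601) and siNCOA4+DFO (688, 842 and 1114). With the replicate number as a block, 1, 5, 6, 0, 10 and 0 members were called in the 6 tests. No called member reversed. Calls kept under all alternatives run were Snora3, Snora44, Snora65 and Snord35a against siNCOA4, and Snord35a and Snord82 for both treatments against siControl. Members with few fragments limit what depth can show.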
